A study of Drosophila melanogaster with 2 samples.

Results

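The genes described are 45 Drosophila melanogaster genes of DNA replication and the cell cycle, out of 13968 protein-coding genes on the chromosome arms. They were taken by symbol from the Ensembl annotation of the BDGP6 assembly by a list of names that sets no threshold on any measured value, and all 45 symbols matched. They hold 15 genes of origin licensing and initiation, 3 of the replication clamp and nucleotide supply, 9 cyclin, Cdk and Cdk inhibitor genes, 2 Cdc25 phosphatases, 2 activators of the anaphase-promoting complex (APC/C), 4 genes of the E2F and Rb pathway, 6 of mitotic kinases and the spindle checkpoint, and 4 of the DNA damage checkpoint. Chromatin immunoprecipitation with sequencing (ChIP-seq) was used on whole embryos aged 0 to 24 h to map where Poxn (Pox neuro), a transcription factor with a paired domain, is bound. The embryos were of the strain Poxn-GFP, in which an insertion targeting Poxn gives a Poxn-eGFP fusion protein. The sample descriptions name an anti-GFP antibody, whereas the antibody field gives Poxn. There was 1 group of 2 biological replicates, and the control experiment that the labels name was not analysed here, so samples could not be tested against each other. The embryos span many stages and all cell types, and neither the promoter that drives the fusion nor the share of cells that make it is stated in the labels.

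Before each S phase the origin recognition complex, Cdc6 and Cdt1 load the Mcm2-7 helicase on chromatin, and cyclin-dependent kinases then drive the cell into S phase and mitosis. In early fly embryos the first division cycles run on maternal products, and zygotic string then sets the time of later mitoses. Transcription of replication genes is known to depend on E2F with its partner Dp, which Rb proteins hold in check, and in flies also on DREF, the factor that binds the DNA replication-related element (DRE). Many fly genes of these classes lie head to head with a neighbour, so that 1 stretch of DNA between 2 start sites serves both genes.

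The sequence under 4 of the promoter peaks is shown first, as examples of peaks between the start sites of 2 genes. The windows of the other promoter peaks are not shown. Each is the 201 bp of dm6 centred on the summit, the position of highest signal, read 5′ to 3′ on the forward strand from the RefSeq assembly. A 5th is the intronic peak of E2f1, the activating E2F. Capitals mark the TATA box word TATAAA on either strand, or, in E2f1, the Zelda word CAGGTAG on the reverse strand. The Zelda word was in 0.892% of the windows of all promoter peaks. The 2 places in the aurA window with CGATA, the core of the BEAF-32 site, are not marked. The mei-41 window, at chrX:16391430-16391630, held none of the 14 words searched. The Mcm2 window was chr3R:8264720-8264920, that of Cdk1 chr2L:10386397-10386597, that of aurA chr3R:11962866-11963066 and that of E2f1 chr3R:21627861-21628061.
mei-41: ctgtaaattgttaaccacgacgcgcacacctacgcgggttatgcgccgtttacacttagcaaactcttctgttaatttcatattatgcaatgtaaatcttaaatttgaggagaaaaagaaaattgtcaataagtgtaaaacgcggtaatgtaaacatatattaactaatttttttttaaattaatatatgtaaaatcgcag
Mcm2: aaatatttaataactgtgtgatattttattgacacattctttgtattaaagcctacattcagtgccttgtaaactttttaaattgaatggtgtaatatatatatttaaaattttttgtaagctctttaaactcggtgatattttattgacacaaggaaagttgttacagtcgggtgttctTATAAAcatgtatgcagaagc
Cdk1: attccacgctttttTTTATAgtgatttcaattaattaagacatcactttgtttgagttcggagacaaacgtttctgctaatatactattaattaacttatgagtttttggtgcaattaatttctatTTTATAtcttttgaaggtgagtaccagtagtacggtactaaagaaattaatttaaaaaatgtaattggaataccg
aurA: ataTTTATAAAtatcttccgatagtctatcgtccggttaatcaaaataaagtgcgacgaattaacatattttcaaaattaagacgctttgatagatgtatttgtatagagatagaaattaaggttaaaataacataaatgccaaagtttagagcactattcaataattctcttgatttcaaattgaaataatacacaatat
E2f1: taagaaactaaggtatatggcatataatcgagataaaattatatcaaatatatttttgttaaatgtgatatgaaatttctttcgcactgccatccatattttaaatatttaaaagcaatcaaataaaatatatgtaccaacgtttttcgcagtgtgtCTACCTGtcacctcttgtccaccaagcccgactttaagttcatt
The Mcm2 window held a run of 19 bases at 2 places 117 bp apart, gtgatattttattgacaca, a feature chosen after the sequence was seen. A run at least that long occurred at 2 separate places in 2 of 785 promoter peak windows, 0.255%, with the Mcm2 window itself among them. The aurA window was 25.4% G and C, the Cdk1 and Mcm2 windows 27.4% each and the mei-41 window 30.8%.

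A peak here is an interval of a deposited thresholded list, and its signal is the authors' enrichment value, which ranks peaks within 1 list only. A candidate is an interval of the longer ranked list from which the thresholded one was drawn. The irreproducible discovery rate (IDR) measures how well a candidate's rank repeats between the 2 sets of peaks compared, and the thresholded lists held only candidates with a −log10 IDR of 2 or more. The list made from the pair of replicates held 1488 peaks of 146020 candidates, with a median signal of 81.17. Replicate 1 alone gave 800 peaks and replicate 2 alone 979. The sources used here do not give the read depth, so its part in these numbers is unknown.

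In the list of the pair, 7 of the 45 genes (15.6%) had a summit at most 500 bp from an annotated transcription start site (TSS). They were the helicase subunit genes Mcm2 and dpa, the ribonucleotide reductase gene RnrS, the mitotic kinase genes Cdk1 and aurA, the E2F partner gene Dp and the checkpoint kinase gene mei-41. Among all protein-coding genes the share was 7.72%, or 1079 of 13968. In a wider list of 111 other replication, mitosis and repair genes it was 9.91%, or 11 genes. The conservative list of the pair gave the same 7 genes, against 7.14% of all genes. Replicate 1 alone gave 5 of the 45 (11.1%) against 4.37% of all genes, and replicate 2 alone gave 4 of the 45 (8.89%) against 6.17%. The members' share thus lay above that of all genes in each of the 4 lists, and rested on 5 genes in replicate 1 and on 4 in replicate 2. The 4 lists come from the same 2 libraries and are not independent.

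Each summit was also given to the gene with the nearest TSS at any distance. By this rule 8 of the 45 genes (17.8%) had a peak in the list of the pair, against 8.23% of all genes. CycB, E2f1 and Cdk4 entered and mei-41 and Cdk1 left, since the TSS of a neighbour was nearer to their summits. The count was 7 genes in the conservative list (background 7.64%), 6 in replicate 1 (4.63%) and 4 in replicate 2 (5.69%). Over both rules and all 4 lists, 11 of the 45 genes had a thresholded peak and 34 had none. The share of all genes under this pooling was not counted, so the 11 cannot be set against the shares above.

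**Figure D1:**
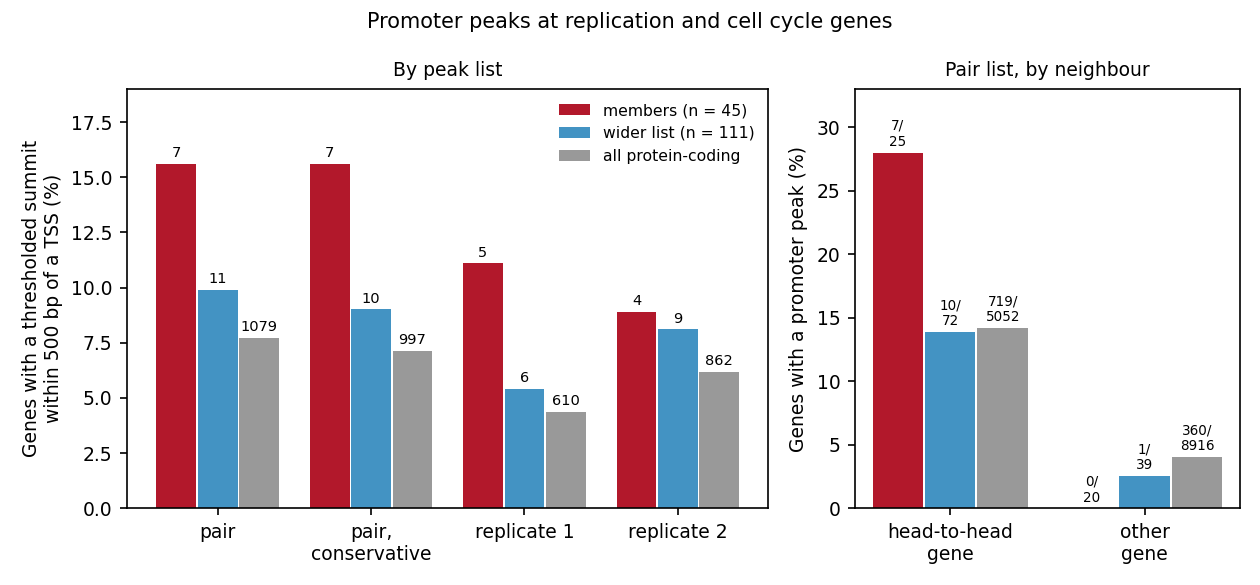
Share of genes, in percent, with a thresholded summit within 500 bp of a TSS, for the 45 members, the wider list and all protein-coding genes in each of 4 peak lists (left), and in the list of the pair split by whether the gene has a head-to-head protein-coding neighbour within 1000 bp (right). Digits on the bars are gene counts; all 7 member genes with a peak have such a neighbour, and 0 of the 20 others have a peak.

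Origin licensing held 2 of the 7, out of 15 genes. The dpa gene, which encodes Mcm4 of the helicase, had a peak at 2R:7499802-7500105 with a signal of 89.7, rank 621 of 1488. The overlapping candidates had signals of 45.7 in replicate 1 and 40.99 in replicate 2, and both passed the threshold of their own list. The summit lay 77 bp upstream of the inner of the 2 annotated TSSs of dpa, 191 bp downstream of the outer one and 193 bp upstream of the TSS of didum, a myosin V gene on the other strand. A further peak at 2R:7500002-7500305 had a signal of only 4.55, rank 1479, and overlapped the same replicate peaks, so it adds no separate replicate support. Its summit was 9 bp upstream of the outer TSS of dpa and 7 bp downstream of that of didum.

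Mcm2, another helicase subunit, had a peak at 3R:8264668-8264971 with a signal of 85.7, rank 686. Its candidates had 49.3 in replicate 1, where it passed the threshold, and 38.5 in replicate 2, where it did not, with a −log10 IDR of 0.0625. The summit lay 150 bp upstream of Mcm2 and 369 bp upstream of RPA1, which encodes a subunit of the single-strand binding protein of the replication fork. Both genes of this pair thus serve replication, and the peak cannot be given to 1 of them.

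The other 13 licensing genes had no thresholded peak. Orc6 of the origin recognition complex had the highest candidate of these, with a signal of 35.5 at percentile 77.4 of protein-coding genes with a candidate. It had 19.7 in replicate 2 and no candidate in replicate 1. Mcm7 and Mcm10 had no candidate within 500 bp in the list of the pair, and the candidates of Mcm3, Mcm5, Mcm6, Orc1, Orc2, Orc4, Orc5, Cdc6, dup (Cdt1) and geminin, the inhibitor of Cdt1, lay between percentiles 11.8 and 69.6. In the ranked list of the pair, helicase subunits that act as 1 complex were thus spread from no candidate, for Mcm7, to rank 657, for dpa.

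Of the genes of the clamp and nucleotide supply, RnrS, the small subunit of ribonucleotide reductase, had a peak at 2R:11985421-11985724 with a signal of 89.7, rank 622. Its candidates had 32.6 in replicate 1, below the threshold with a −log10 IDR of 1.24, and 58.9 in replicate 2, which passed. The summit was 180 bp upstream of RnrS and 435 bp upstream of CG34231 on the other strand. RnrL, the large subunit of the same enzyme, had no candidate in any of the 4 ranked lists. PCNA, the sliding clamp, had a candidate signal of 11.7 in the pair, at percentile 10.3, and of 6.88 in replicate 1 and 11.8 in replicate 2, so it was among the 3 lowest members with a candidate. Its candidate in replicate 1 lay farther from a TSS than those in the pair and in replicate 2.

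Among cyclins and Cdks, Cdk1, the mitotic kinase, had a peak at 2L:10386345-10386648 with a signal of 69.1, rank 961. Its candidates had 30.4 in replicate 1 and 34.2 in replicate 2, and neither passed in its own list. The summit lay 235 bp upstream of Cdk1 and nearer to mRpS7, a mitochondrial ribosomal protein gene, at 165 bp upstream of that TSS. Cdk4, the partner of cyclin D, had a peak at 2R:16578723-16579026 with a signal of 53.7, rank 1362, 595 bp upstream of its TSS and so just outside the 500 bp window. Its candidates had 22.2 in replicate 1 and 31.0 in replicate 2, below both thresholds.

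The strongest peak given to any member was that of CycB, a mitotic cyclin. It lay at 2R:22802919-22803056, was 138 bp wide and had a signal of 246, rank 100. It passed in both replicates, with 87.9 in replicate 1 and 152 in replicate 2. It was not at the promoter, being 3329 bp downstream of the nearest CycB TSS and 547 bp past the 3′ end of the annotated gene, with the TSS of blw, an ATP synthase subunit gene, 3875 bp away. Within 500 bp of a CycB TSS the strongest candidate had a signal of 20.1, at percentile 34.9. CycE, the S phase cyclin, had a candidate at percentile 74.5 and dap, the Cdk inhibitor, 1 at percentile 48.0. CycB3 was at percentile 6.65, with a signal of 9.65, and had 5.12 in replicate 1 and no candidate in replicate 2. CycA, CycD and Cdk2 had no candidate in any ranked list.

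In the E2F and Rb pathway, Dp had the strongest promoter peak of the 45 genes, at 2R:13223183-13223486, with a signal of 189 and rank 178. Both replicates passed, with 72.9 in replicate 1 and 113 in replicate 2. The summit was 256 bp upstream of a downstream TSS and 902 bp inside the gene from its most 5′ TSS, so with that TSS alone Dp has no promoter peak. E2f1 had a peak in an intron at 3R:21627809-21628112 with a signal of 58.6, rank 1247, 4732 bp downstream of its nearest TSS. The TSS of the noncoding gene asRNA:CR46055 was almost as near, at 4744 bp, and the most 5′ TSS of E2f1 was 32910 bp away. The candidates of the E2f1 peak had 34.1 in replicate 1, which passed, and 24.5 in replicate 2, which did not. Rbf, the Rb protein gene, had the lowest candidate of the members, with a signal of 5.80 at percentile 2.16. It had 7.22 in replicate 1 and no candidate in replicate 2. E2f2, the repressing E2F, had none in the list of the pair.

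Of the 6 genes of mitotic kinases and the spindle checkpoint, aurA, the Aurora A kinase gene, had a peak at 3R:11962814-11963117 with a signal of 59.9, rank 1213. Its candidates had 32.4 in replicate 1, which passed, and 25.4 in replicate 2, which did not. The summit was almost midway between 2 genes, 158 bp upstream of aurA and 161 bp upstream of CG3281. Bub3 of the spindle checkpoint had a candidate of 47.3 at percentile 86.6, with a −log10 IDR of 1.86, short of the threshold, and 29.2 in replicate 1 and 21.0 in replicate 2. The aurB candidate, of the Aurora B kinase gene, was 38.0 at percentile 80.1, with 12.3 in replicate 1 and 27.9 in replicate 2, and lay 470 bp inside the gene. The polo kinase gene was at percentile 25.1, and Bub1 and BubR1 had no candidate in the list of the pair.

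All 4 DNA damage checkpoint genes had a candidate. For mei-41, the fly ATR kinase gene, the peak at X:16391378-16391681 had a signal of 87.3, rank 656. Its candidates had 32.5 in replicate 1, below the threshold with a −log10 IDR of 1.65, and 57.9 in replicate 2, which passed. The summit was 168 bp upstream of mei-41 but only 92 bp upstream of TH1, the gene of a negative elongation factor subunit. The tefu gene, which encodes ATM, had a thresholded peak in replicate 1 only, at 3R:15242591-15242870, with a signal of 17.2 and rank 786 of 800. That summit lay 495 bp upstream of tefu, just inside the window, and 44 bp downstream of the TSS of Hsc70-4. The strongest candidates of tefu in the pair and in replicate 2 had summits nearer to its TSS than that one. The candidate of tefu in the pair had a signal of 32.8 and a −log10 IDR of 1.99, just short of the threshold, and that in replicate 2 had 21.2. The candidate of lok, the Chk2 kinase gene, had a signal of 48.0 at percentile 87.0, the highest of the members with no thresholded peak, with 26.2 in replicate 1 and 24.4 in replicate 2. That of grp, the Chk1 kinase gene, was at percentile 36.5.

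Of the activators and phosphatases, fzr, an APC/C activator gene, had a candidate of 38.2 at percentile 80.2, with 23.5 in replicate 1 and 17.4 in replicate 2, and fzy, the other activator, had none in any list. The Cdc25 gene stg (string) was at percentile 50.8, while twe had none in the list of the pair. None of these 4 genes had a thresholded peak.

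**Figure D2:**
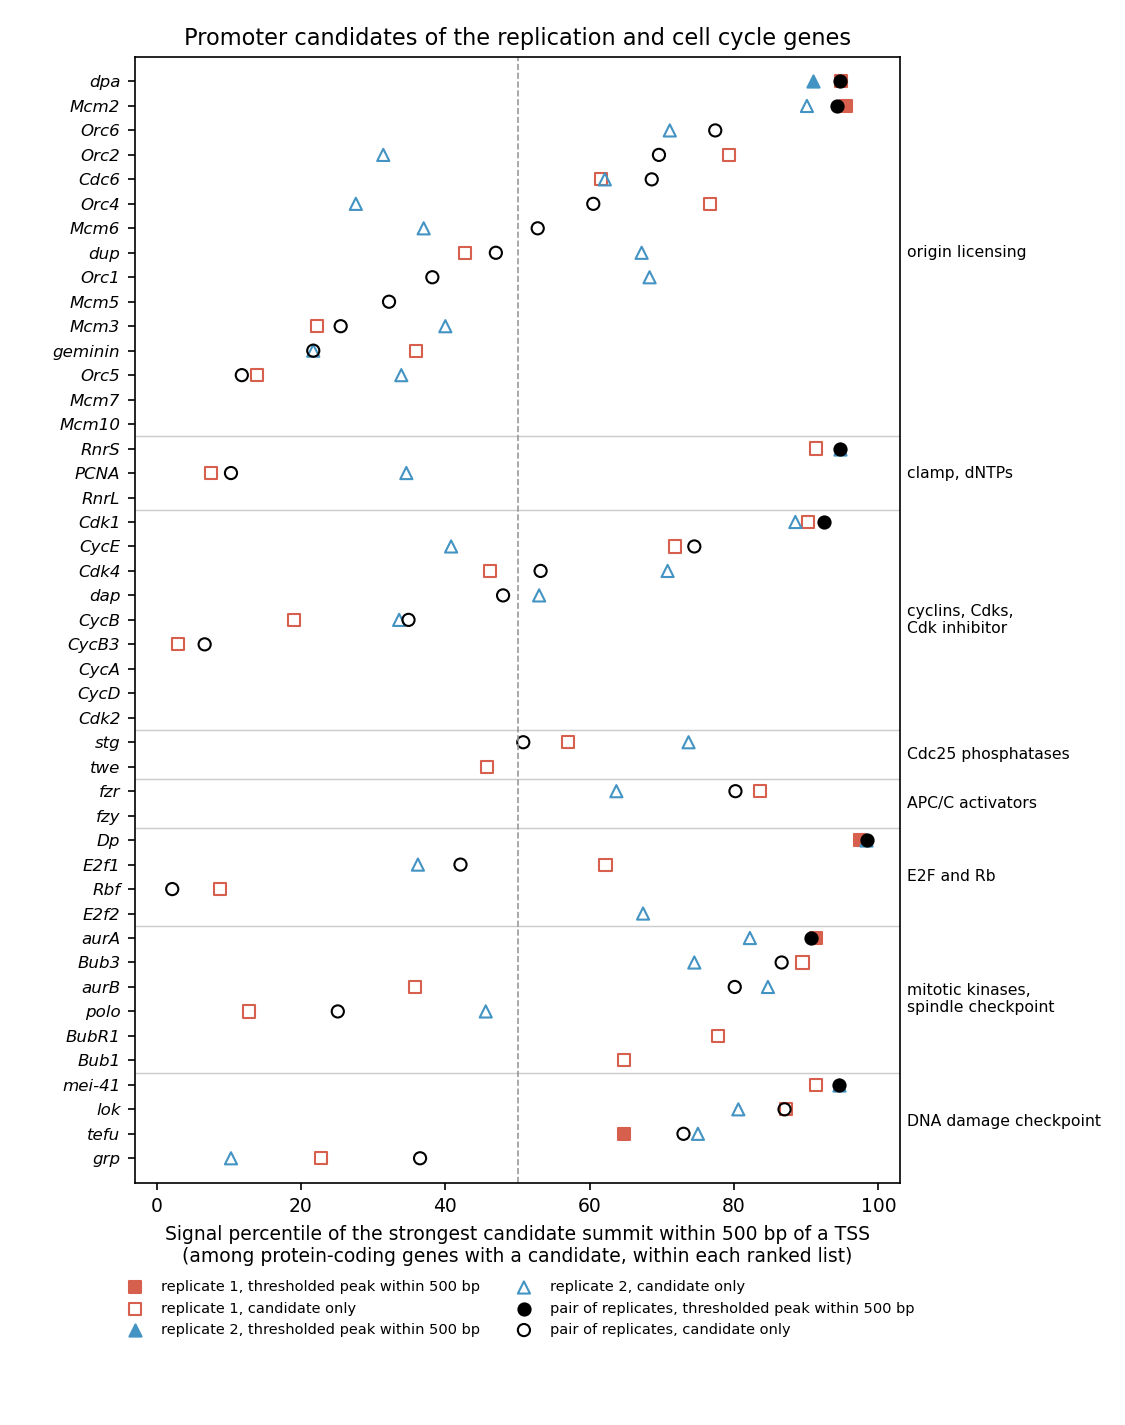
Percentile of signal of the strongest candidate summit within 500 bp of a TSS, for the 45 members by role (rows), in the ranked lists of the pair (circles), replicate 1 (squares) and replicate 2 (triangles); filled symbols have a thresholded peak there and the dashed line is the median of all protein-coding genes. The 7 members with a thresholded peak in the pair are at or above percentile 90.7, and 7 members, with no candidate in these 3 lists, have no symbol.

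Over the members as a whole, a candidate within 500 bp was present for 34 of 45 genes (75.6%), close to the 77.5% of all protein-coding genes. Of the 34, 7 (20.6%) were thresholded, against 13.3% in the wider list and 9.97% of all genes with a candidate. The median percentile of the 34 was 56.9, between 53.5 in the wider list and, by construction, 50 in all genes. In the ranked list of replicate 1 it was 63.4 over 32 members, and in that of replicate 2 it was 67.3 over 32. The members were thus 7 genes above the 90th percentile and a broad spread below, with 14 of 34 under the median of all genes. Cdk2, CycA, CycD, RnrL and fzy had no candidate in any ranked list, and Bub1, BubR1, E2f2, Mcm10, Mcm7 and twe had none in that of the pair but 1 in another.

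The replicates ranked the members alike in part by their strongest promoter candidate. That candidate was taken in each replicate alone and need not be the same site. At dup and polo, for example, it lay downstream of a TSS in replicate 1 and upstream of one in replicate 2. Over the 27 members with a candidate in both, Spearman's rho between the percentiles was 0.714, against 0.502 over 7295 protein-coding genes. Genes are not independent replicates, so these are descriptions. Of the 8 promoter peaks of members, 3 (37.5%) overlapped a thresholded peak in both replicates, 2 in replicate 1 only, 2 in replicate 2 only and 1 in neither. Of the 785 promoter peaks of all protein-coding genes, 358 (45.6%) overlapped 1 in both and 161 (20.5%) in neither. The 3 member peaks found in both were that of Dp and the overlapping pair at dpa, which share the same replicate peaks. With an overlap of at least 50% of the shorter peak, 2 member peaks were found in both.

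**Figure D3:**
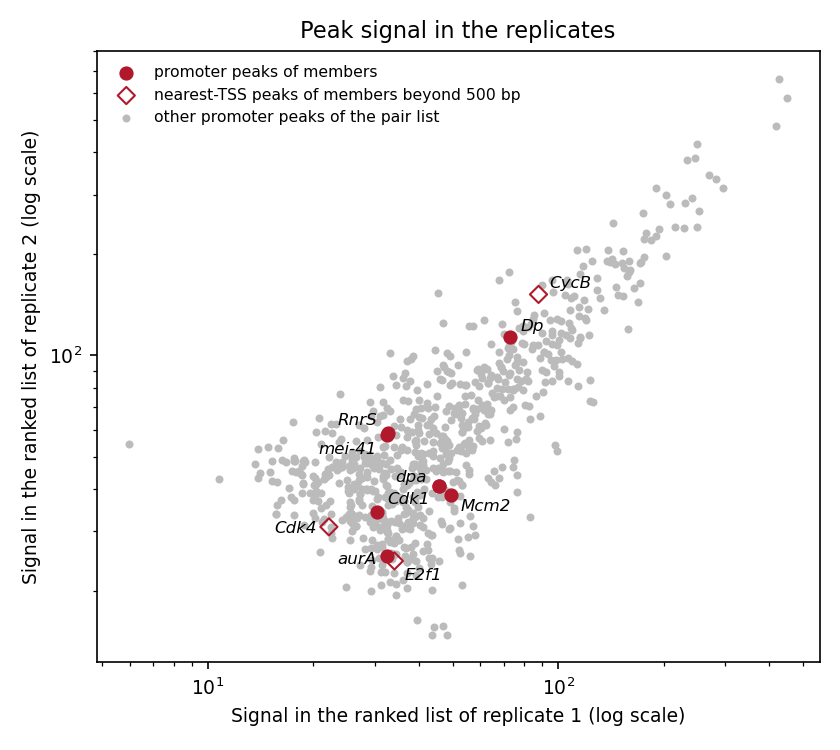
Signal of each peak of the pair in the ranked list of replicate 1 (x axis) and replicate 2 (y axis), both on log scales, for promoter peaks of members (red), for nearest-TSS peaks of members beyond 500 bp (open diamonds) and for other promoter peaks (grey). CycB, with 87.9 in replicate 1 and 152 in replicate 2, and Dp, with 72.9 and 113, have higher signals in both replicates than the other members drawn; the 2 dpa peaks share 1 point.

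The member peaks sat upstream of start sites and mostly between 2 of them. All 8 member promoter summits were upstream of the member's nearest TSS. So were all 11 of the wider list and 88.6% of the summit and gene pairs of all protein-coding genes. The median position was 163 bp upstream for the members, 128 bp for the wider list and 142 bp for all genes. With the most 5′ TSS alone, 6 of 7 member summits were upstream. The stronger dpa summit then lay 191 bp inside the gene, and Dp was not counted. Of the 8 member peaks, 7 (87.5%) were also within 500 bp of the TSS of another gene, the exception being that of Dp. The share was 81.8% in the wider list and 44.6% over all promoter peaks. The member's own TSS was the nearest for 5 of the 8 (62.5%), against 71.2% of all pairs. With positions of this kind a peak cannot be assigned to the member rather than to its neighbour.

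**Figure D4:**
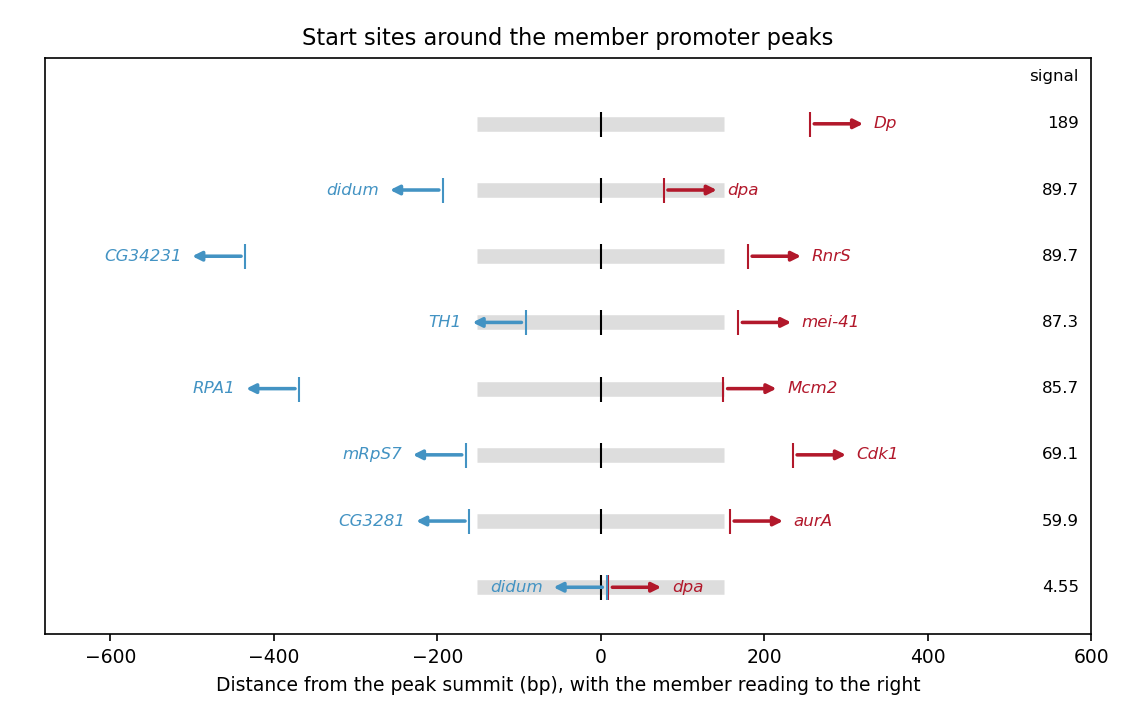
Position of TSSs relative to the summit (black tick at 0, in bp) of each member promoter peak, drawn with the member (red arrow) reading to the right; blue arrows are the other gene with a TSS within 500 bp, grey bars are the peaks, and the signal in the list of the pair is at the right. The nearest member TSS is drawn, so the outer TSS of dpa is absent from its upper row; in 6 of 8 rows the summit lies between 2 diverging start sites.

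Head-to-head gene pairs were common among the members. A protein-coding neighbour with a TSS within 1000 bp on the opposite strand, reading away, was annotated for 25 of the 45 genes (55.6%), for 72 of 111 in the wider list (64.9%) and for 5052 of all protein-coding genes (36.2%). All 7 members with a promoter peak were among the 25, which makes 28.0% of them, and 0 of the other 20 members had a peak. In the wider list 10 of the 72 (13.9%) and 1 of the other 39 (2.56%) had a peak. Over all protein-coding genes the shares were 14.2% with such a neighbour and 4.04% without. The gap between the TSSs of the called members and their neighbours was 2 bp at dpa and didum, 95 bp at Dp and Fsn, 260 bp at mei-41 and TH1, 319 bp at aurA and CG3281, 400 bp at Cdk1 and mRpS7, 519 bp at Mcm2 and RPA1 and 615 bp at RnrS and CG34231. The Dp peak is not in its gap, and its nearest other TSS, that of Fsn, is 876 bp from the summit. Neither dpa summit is in the 2 bp gap. The stronger lies between the TSS of didum and the inner TSS of dpa, 270 bp apart. The weaker lies 7 bp downstream of the didum TSS. Pairs as close were also without a peak, among them lok and barr, 52 bp apart, and Bub3 and Cap-D2, 230 bp apart. A summit between 2 start sites counts for both genes, and whether this alone sets the difference in shares was not tested.

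Short words were searched on both strands in the window from 250 bp before to 50 bp after every TSS. Of these, only the E2F words and the DRE word belong to the regulators of replication genes named above. Any of 4 E2F words (TTTCGCGC, TTTGCCGC, TTTCCCGC and TTTGGCGC) was in the windows of 17 members (37.8%), of 17 wider genes (15.3%) and of 8.71% of all protein-coding genes. The form TTTGGCGC alone was in 12 members (26.7%), 8.11% of the wider list and 3.16% of all genes. The DRE word TATCGATA, in which the core CGATA of the BEAF-32 site overlaps, was in 10 members (22.2%), 25.2% of the wider list and 10.2% of all genes. CGATA itself was in 62.2% of the members, 73.0% of the wider list and 53.1% of all genes. The core promoter motif 1 core GGTCACAC was in 17.8%, 22.5% and 8.70% of the same sets, and the motif 7 core CATCNCTA in 20.0%, 12.6% and 7.44%. The TATA word TATAAA was in 57.8%, 59.5% and 51.3% of the same sets, CAGCTG in 26.7%, 18.0% and 22.3%, GAGAGAG in 11.1%, 2.70% and 9.08%, and CACGTG in 2.22%, 1.80% and 5.33%. The Zelda word CAGGTAG was in 0 members, 0 wider genes and 2.30% of all genes, and the Pax core word GTCACGC in 0 members, 5 wider genes (4.50%) and 2.05% of all genes. A word is a run of letters in these windows and says nothing of whether the factor is bound.

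**Figure D5:**
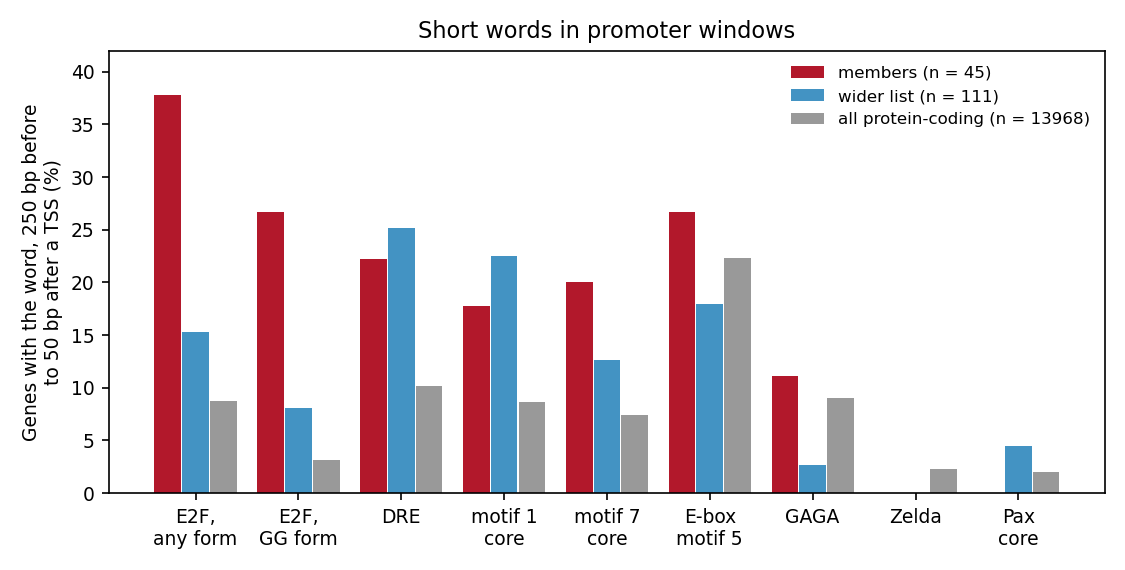
Share of genes, in percent, with a word on either strand between 250 bp before and 50 bp after any TSS, for the 45 members, the wider list and all protein-coding genes. The E2F words, in any form or in the GG form alone, are in 37.8% and 26.7% of members, against 8.71% and 3.16% of all genes.

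Members with these words had promoter peaks at shares to be read against the 15.6% of all 45. Of the 17 with an E2F word, Mcm2, RnrS and dpa had a promoter peak (17.6%) and 14 had none, among them CycE, Mcm3, Mcm5, Mcm6, Orc1 and RnrL. Of the 10 with the DRE word, mei-41 had a peak and 9 had none, namely Bub1, Bub3, BubR1, Cdk2, Cdk4, CycA, Orc2, Orc5 and PCNA, of which Bub1, BubR1, Cdk2 and CycA had no candidate in the list of the pair. Over all protein-coding genes a promoter peak was present at 9.37% of those with the DRE word and 7.54% of those without, and at 11.4% of those with an E2F word and 7.37% of those without. A promoter peak was present at 0 of the 8 members with motif 1, against 10.5% of all protein-coding genes with it and 7.46% of those without. It was present at 0 of the 9 members with motif 7, against 15.3% of all genes with it and 7.12% of those without, and a count of 0 among so few members was not tested against these shares.

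Under the summits themselves, in the 201 bp windows, the DRE word was in 0 of the 8 member promoter peaks, against 4.46% of 785 promoter peaks of all genes and 1.49% of 16061 promoter candidates outside the thresholded list. An E2F word was in 1 of 8, the stronger dpa peak, where the forms TTTGGCGC and TTTCCCGC began 3 bp and 78 bp from the summit. The share was 3.18% of all promoter peaks and 4.13% of the candidates. TATAAA was in 5 of 8 member windows, those of Mcm2, Cdk1, aurA, RnrS and the weaker dpa peak, against 39.1% of all promoter peaks and 16.9% of the candidates. CGATA was in 1 of 8, that of aurA, against 31.5% and 25.0%. The Pax core word and the other words searched were in none of the 8. The median share of G and C was 29.9% in the 8 member windows, 30.8% in the wider list and 34.3% over all promoter peaks. The windows of Dp, at 44.8%, and of both dpa peaks, at 39.3% and 39.8%, lay above that last value and the other member windows below it. TATAAA holds only A and T, and whether base composition alone sets its share was not tested.

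The wider list, which holds other genes of the same processes, gave 11 genes with a promoter peak, of which the 10 strongest are given in order of signal. The first was pds5, a cohesin regulator, with a signal of 251, rank 94, at a summit 166 bp upstream of it and 112 bp upstream of Mppe. PolD2, of DNA polymerase delta, followed with 209, and sti, the citron kinase gene of cytokinesis, with 128. Top1, a topoisomerase gene, had 106 and SMC2, of condensin, had 102. RPA1 had 85.7 through the peak it shares with Mcm2. The centrosomal gene cnn had 77.6, tum, a cytokinesis gene, 75.5, Cdc16 of the APC/C 75.3 and the centriole gene Sas-4 59.6. The first 5 of these overlapped thresholded peaks in both replicates, whereas Cdc16 and Sas-4 overlapped none in either. By class the wider counts were 1 of 10 polymerase and primase genes, 2 of 22 fork genes, 0 of 9 Cdk regulators, 1 of 14 APC/C genes, 2 of 15 cohesin and condensin genes, 0 of 11 kinetochore genes, 0 of 7 genes of the DREAM complex and Myb, 4 of 12 centrosome and cytokinesis genes and 1 of 11 repair genes.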

How the data were processed

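Peak lists of 2 biological replicates, made on dm6, were analysed as deposited. Per the file notes each thresholded and ranked list was made by the authors from filtered alignments of 1 replicate or of both. Aligner, peak caller and read depth are unknown from the sources used here. The signal of each peak is the value the authors deposited, with no stated normalisation. The deposited score, scaled by the authors from the IDR, and the constant p-value column were not used. The −log10 of the global IDR was read as the authors deposited it.

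Summits were placed against every TSS of Ensembl release 115, and dm6 sequence came from the RefSeq assembly. Python 3.11.15, pandas 2.3.3, numpy 2.4.6 and scipy 1.17.1 were used. Overlap meant at least 1 bp. Percentiles rank the strongest candidate signal within 500 bp among protein-coding genes with a candidate in that list. For members without a peak in the list of the pair, values of different lists are each of the strongest candidate there, which may lie at different sites. The code for the counts was checked on simulated data, which is no test of the members against other genes.

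The 45 members, the wider list (112 names, 111 matched, 2 by synonym) and the 14 words were chosen with earlier results of these data known. Every member is named. Full values are given for those with a peak in the list of the pair, and candidate values for those with one elsewhere, the 5 highest and the 3 lowest of the rest. Of the wider list the 10 strongest are named. The alternatives tried were each replicate alone, the conservative list, a stricter IDR, other TSS windows, the most 5′ TSS, a stricter overlap and other word settings.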

Additional observations from a re-analysis of the deposited data

How the results depend on the processing

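Of 48 alternative values, 30 stayed within 1.5 times the value reported, or within the spread of the replicates for the median percentile, and 18 moved. With 1 replicate left out, the count of members with a promoter peak ranged from 4 to 5 (reported 7), by nearest TSS from 4 to 6 (8), upstream summits from 4 to 5 (8), peaks nearest to the member from 3 to 4 (5), wider genes from 6 to 9 (11), and the median percentile from 63.4 to 67.3 (56.9). With a −log10 IDR of at least 3 these counts were 2, 3, 2, 2 and 5, and 1 member peak overlapped both replicates (reported 3). Dp and RnrS were the 2 members that remained, 4.44% against 3.71% of all genes. Every member promoter summit was upstream in each replicate alone and at this limit, so there only the number of summits moved. With the most 5′ TSS alone, 6 of 7 were upstream. The median percentile was 52.8 in the conservative list, 64.2 with a 1000 bp window and 60.4 with the most 5′ TSS. With up to 1 mismatch TATCGATA was in 21 member promoters, 46.7%, against 31.0% of all genes. The cause of these shifts was not tested, beyond fewer peaks in the smaller lists. For promoter peaks, a 250 bp window or the most 5′ TSS removed Dp, and a 1000 bp window added Cdk4. By nearest TSS, the most 5′ TSS alone gave 6 members, against 1130 of 13968 genes. CycB, Dp and E2f1 then had no peak, and Orc1 gained 1. No paired analysis was possible because both replicates belong to 1 group. Read depth, which is unknown here, can limit which members pass a threshold. With 2 libraries, and with the control not analysed here, the absence of a peak does not show absence of binding.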
